A study of Homo sapiens with 24 samples.

Results

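CBX5 and its relatives in the chromobox family were followed as 7 of the 58138 gene names in the count tables. CBX1, CBX3 and CBX5 encode the 3 heterochromatin protein 1 (HP1) proteins, and CBX2, CBX6, CBX7 and CBX8 encode Polycomb chromobox proteins. The 7 genes were taken by name, and the family was chosen by the measured CBX5 counts, which were higher in the HEK293T groups given RPRD1A siRNA in these same libraries. The CBX5 values in those groups are therefore given as a description, with no test. All 7 genes passed the filter on low counts in every main fit.

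Chromobox proteins carry a chromodomain, a fold that binds methylated lysine in the tail of histone H3. HP1 proteins read the H3K9 methylation written by enzymes such as SUV39H1 and SETDB1, pair with each other through a chromoshadow domain, and build compact heterochromatin, above all at repeats around centromeres. Polycomb chromobox proteins read the H3K27 methylation written by Polycomb repressive complex 2 (PRC2) and bring Polycomb repressive complex 1 (PRC1) to silenced developmental genes, where its RING subunits add ubiquitin to histone H2A.

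The study asked how RPRD proteins, which bind the C-terminal domain of RNA polymerase II, affect steady-state RNA. HEK293T cells, a human embryonic kidney line that carries the SV40 large T antigen, were transfected for 48 h with control siRNA (CTRL) or with siRNAs in the single groups RPRD1A_KD, RPRD1B_KD and RPRD2_KD, in the combined groups RPRD1A_RPRD1A_KD, RPRD1A_RPRD2_KD and RPRD1B_RPRD2_KD, and in the triple group RPRD1A_RPRD1B_RPRD2_KD. Flp-In T-REx 293 cells, a related line built for tetracycline-controlled expression of an inserted gene, were analysed as the parent (FLP) and as a line labelled RPRD1B_FL, each untreated or induced with tetracycline for 48 h (FLP_TET, RPRD1B_FL_TET). Each of the 12 groups had 2 libraries, and the labels do not say whether these came from separate cultures, so p-values measure the spread between libraries, which may be technical. The labels do not explain FL and do not say whether the RPRD1B_FL line is 1 clone, so the inserted gene and the history of the line cannot be told apart. The label RPRD1A_RPRD1A_KD names RPRD1A in both positions and was kept.

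Counts in genes ranged from 1817246 to 3135625 in the HEK293T libraries and from 2342969 to 3531106 in the Flp-In libraries, and 3 counts corresponded to 0.863 to 1.67 CPM (counts scaled to TMM library sizes over all 24 libraries). The targeted genes bear on how the groups are read. RPRD1A lay between 14.3 and 26.8 CPM in the 8 libraries whose labels name RPRD1A siRNA, at 153 and 162 CPM in CTRL, and between 68.0 and 100.3 CPM in the other 6 HEK293T libraries. RPRD1B was at 27.9 and 27.6 CPM in CTRL, at 10.2 and 6.08 CPM in RPRD1B_KD, and at 13.8 and 7.90 CPM in the libraries labelled RPRD1A_RPRD1A_KD, whose label does not name it. RPRD1B was at 89.4 and 67.5 CPM in RPRD1B_FL_TET and at 30.9 and 30.5 CPM in FLP_TET. The second RPRD1A_RPRD2_KD library stood apart from the other 15 HEK293T libraries on the leading principal component (-51.3, against -2.35 to 11.5 in the others), which held 28.3% of the variance. The 7 markers of 293 lines were all detected and summed to 214 to 299 CPM in HEK293T and 550 to 678 CPM in Flp-In libraries. Vimentin (VIM) was at 76.2 to 155 and 326 to 414 CPM, while LIN28B (56.9 to 96.2 and 35.5 to 64.8 CPM) and NEFM (4.6 to 20.5 and 0.764 to 3.82 CPM) had lower ranges in Flp-In libraries, overlapping for LIN28B. PAX2 (0.558 to 5.03 CPM) and KRT8 (1.54 to 6.44 CPM) were low in HEK293T libraries, PAX2 down to below the 3-count level. The summed endothelial markers were at most 0.678 CPM in every HEK293T library. The summed fibroblast markers were higher, at 6.34 to 17.6 CPM in HEK293T and 2.23 to 6.11 CPM in Flp-In libraries. Among them COL1A1 was at 3.70 to 14.2 and 1.15 to 5.34 CPM.

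On GRCh38, CBX5 occupies chr12:54230940-54280133 on the minus strand, head to head with HNRNPA1 (chr12:54280193-54287088, plus strand), which encodes an abundant splicing factor. The RefSeq starts of this pair lie 604 bp apart, and SMUG1, a uracil DNA glycosylase gene, is the nearest gene on the other side. CBX3 (chr7:26201162-26213356, plus strand) has the same arrangement with HNRNPA2B1, a close relative of HNRNPA1, with starts 697 bp apart, and the annotated ends of this pair overlap. CBX2 and CBX8 neighbour each other on chromosome 17 with 4148 bp between them, and CBX6 and CBX7 lie 258.555 kb apart on chromosome 22. Antisense transcripts named AC078778.1 and AC078778.2 overlap CBX5, and since the strand setting of the counting is not given in the sources used here, their reads could not be told apart from those of CBX5. Pseudogene names for CBX1 (5 names), CBX3 (9) and CBX5 (1) held 0.982%, 0.828% and 0.374% as many counts as the genes themselves.

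The promoter windows of the HP1 genes that share a start region with a splicing factor gene are shown because the levels of each pair of neighbours are compared further on. Each window holds the 250 bases before the RefSeq start (GRCh38.p14), CBX5 from chr12:54280123-54280372 on the minus strand and CBX3 from chr7:26201193-26201442 on the plus strand. Capitals mark the letters CACGTG (an E-box) and the NRF1 motif (GCGCA, any base, then GCGC), searched on both strands.
CBX5: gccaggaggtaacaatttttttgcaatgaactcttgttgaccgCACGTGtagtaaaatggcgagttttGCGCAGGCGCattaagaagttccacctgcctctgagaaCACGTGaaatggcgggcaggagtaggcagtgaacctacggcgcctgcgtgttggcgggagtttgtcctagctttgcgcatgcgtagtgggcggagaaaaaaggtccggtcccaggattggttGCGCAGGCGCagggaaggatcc
CBX3: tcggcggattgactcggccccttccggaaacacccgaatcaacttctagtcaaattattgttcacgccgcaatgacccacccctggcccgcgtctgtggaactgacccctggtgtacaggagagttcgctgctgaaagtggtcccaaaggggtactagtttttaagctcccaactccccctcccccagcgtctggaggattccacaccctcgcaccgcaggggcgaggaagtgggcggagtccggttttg
The CBX5 window held 2 copies of CACGTG and 2 of the NRF1 motif. The CBX3 window held neither. Of 35116 windows of this length, 6.34% held CACGTG and 5.07% held the NRF1 motif. The GC box GGGCGG, present in 42.6% of windows, occurred in both printed windows. Of these 2, CCAAT (32% of windows) occurred in CBX5 alone and TATAAA (10.7%) in neither. These are letter matches and not measured binding. RefSeq windows were matched for 4 of the 7 genes. The CBX6 window, not printed, held 1 copy of CACGTG and 1 of the NRF1 motif, and the CBX7 window held neither.

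CBX5 encodes HP1-alpha, the HP1 protein most tied to centromeric heterochromatin. In CTRL, CBX5 was at 144 and 142 CPM (143 ± 2.04, mean ± SD, n = 2). In RPRD1A_KD it was at 231 and 233 CPM (232 ± 1.72). The RPRD1A_KD libraries were the highest of the 16 HEK293T libraries. RPRD1A_RPRD2_KD gave 176 and 185 CPM (180.3 ± 6.14), and RPRD1A_RPRD1A_KD gave 171 and 161 CPM (166 ± 7.18). The group with all 3 siRNAs, RPRD1A_RPRD1B_RPRD2_KD, gave 168 and 136 CPM (152 ± 22.7), so that its libraries lay on both sides of CTRL. Without RPRD1A siRNA, CBX5 was at 131 and 136 CPM in RPRD1B_KD (134 ± 3.97), 118 and 119 CPM in RPRD2_KD (118 ± 0.617), and 110.1 and 121 CPM in RPRD1B_RPRD2_KD (116 ± 7.89). Of the 8 libraries given RPRD1A siRNA, 7 lay above the highest of the other 8 HEK293T libraries. The exception was the second RPRD1A_RPRD1B_RPRD2_KD library. In these bulk libraries, fewer cells of a type and less RNA per cell cannot be told apart.

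**Figure D1:**
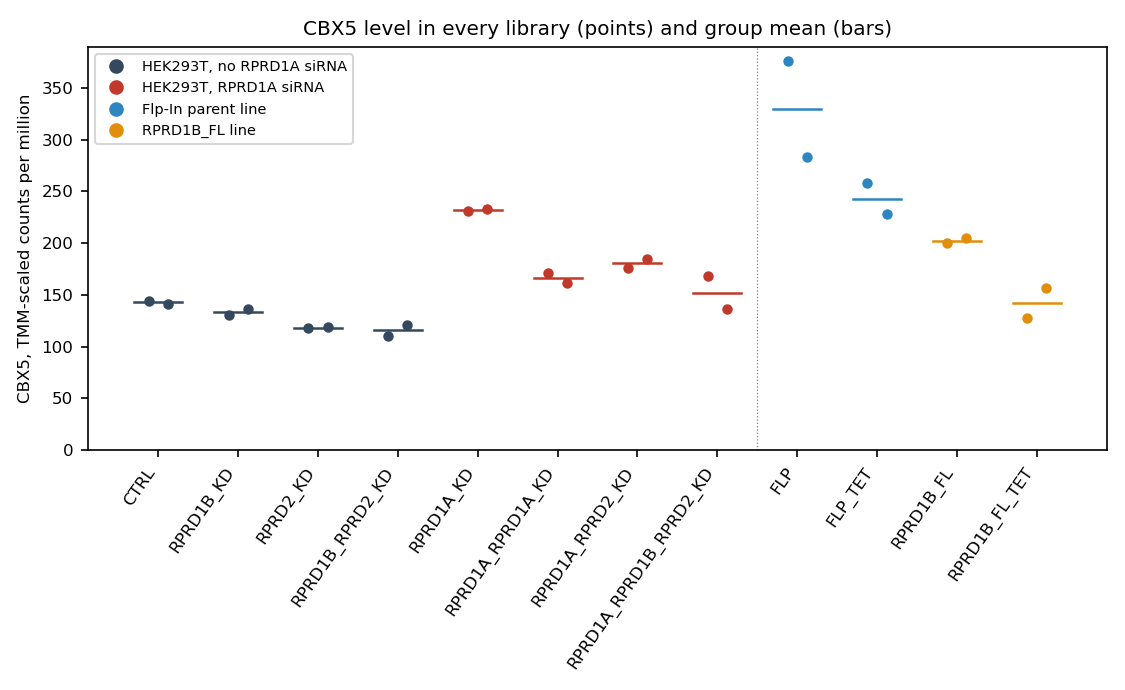
CBX5 level in CPM (vertical axis) in each of the 24 libraries (points) with the mean of each of the 12 groups (bars), coloured by siRNA or line. The 2 RPRD1A_KD libraries, at 231 and 233 CPM, are the highest of the HEK293T libraries, and FLP holds the highest library of all at 376 CPM.

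As a description, the mean of the 4 groups named for RPRD1A was higher than that of the other 4 by 0.50 on the log2 scale (SE 0.0753). In this contrast, which chose the gene, 8 of 11834 genes were called by edgeR's quasi-likelihood test at an adjusted p under 0.05, or 0.0676%. That count was 140 without the first RPRD1A_RPRD2_KD library and 1 to 8 without each of the other libraries. The log2 differences from CTRL were 0.70 (SE 0.15) for RPRD1A_KD, 0.32 for RPRD1A_RPRD2_KD, 0.23 for RPRD1A_RPRD1A_KD and 0.09 for RPRD1A_RPRD1B_RPRD2_KD. The last of these ranged from -0.07 to 0.24 as each library of that group was left out. Without the second RPRD1A_RPRD2_KD library the difference over all groups was still 0.50. These comparisons share the CTRL libraries.

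In the groups without RPRD1A siRNA, CBX5 could be tested. The log2 differences from CTRL were -0.09 (SE 0.151) in RPRD1B_KD, -0.26 in RPRD2_KD and -0.30 in RPRD1B_RPRD2_KD, and edgeR's quasi-likelihood test with Benjamini-Hochberg adjustment called none of them (adjusted p = 1 in each). Of all genes tested, 0.00845% were called in RPRD1B_KD and in RPRD2_KD and 0.0169% in RPRD1B_RPRD2_KD. All 4 libraries given RPRD2 siRNA without RPRD1A siRNA lay below all 4 libraries of CTRL and RPRD1B_KD. 2 further averages draw on the libraries that chose CBX5 and are given as descriptions, with no test. Averaged over the 3 matched differences that add RPRD2 siRNA, 1 of which lies between RPRD1A_RPRD2_KD and RPRD1A_KD, CBX5 differed by -0.29 (SE 0.0869). The matched difference for RPRD1B siRNA, which includes the triple group minus RPRD1A_RPRD2_KD, was -0.12 (SE 0.0872). Of all genes, 0.0169% were called by edgeR for RPRD2 siRNA and 0.0254% for RPRD1B siRNA.

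In Flp-In cells, where no siRNA was given, CBX5 was higher in the parent than in the RPRD1B_FL line. FLP gave 376 and 284 CPM (330.0 ± 65.5) and RPRD1B_FL gave 199.7 and 205 CPM (202 ± 3.56). With tetracycline, FLP_TET gave 258 and 228 CPM (243 ± 21.4) and RPRD1B_FL_TET gave 127 and 157 CPM (142 ± 20.9). All 4 libraries of the RPRD1B_FL line lay below all 4 of the parent. CBX5 fell by 0.70 on the log2 scale in RPRD1B_FL against FLP (SE 0.163, edgeR adjusted p = 0.0296). It fell by 0.79 in RPRD1B_FL_TET against FLP_TET (SE 0.167, edgeR adjusted p = 0.0153).

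CBX5 was the only one of the 7 genes called in either line comparison. Among all genes, 1.18% were called in RPRD1B_FL against FLP (0.954% lower) and 1.11% in RPRD1B_FL_TET against FLP_TET (0.887% lower). The untreated call was lost without the first FLP library (-0.49, edgeR adjusted p = 0.528) and without either RPRD1B_FL library (0.294 and 0.153). The induced call was lost without either FLP_TET library (0.355 and 0.149) and without the first RPRD1B_FL_TET library (0.0601). All these estimates stayed below 0, and the lone library of a group was then assumed to vary like the others.

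Each library's deviations from the mean of its cell line also varied with transcript GC content, and differently between libraries. The Spearman correlation of these deviations with GC was -0.556 and -0.376 in FLP, 0.206 and -0.504 in RPRD1B_FL, 0.307 and 0.456 in FLP_TET, and 0.616 and -0.134 in RPRD1B_FL_TET. Its sign is thus relative to the other libraries of the line. GC was that of the longest annotated transcript, while the libraries were read from the 3′ end. For CBX5 it was 41.8%, at percentile 25.5 of the genes tested. With a GC correction, the CBX5 differences between lines were -0.61 untreated (edgeR adjusted p = 0.00635) and -0.78 induced (edgeR adjusted p = 0.000929).

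Tetracycline itself went with lower CBX5 values in both lines, short of the threshold. The log2 difference was -0.44 in the parent (SE 0.161, edgeR adjusted p = 0.119), and it moved to -0.24 with the GC correction and to -0.23 without the first FLP library. Some other edgeR fits called it, with only the 4 compared libraries (adjusted p = 0.0463) and with a crossed replicate block (adjusted p = 0.0209). Those fits called 1273 of 11848 and 1623 of 11948 genes. Without the second FLP library the difference was -0.64. Of 13 alternatives, 10 did not call CBX5. In the RPRD1B_FL line the tetracycline difference was -0.53 (SE 0.168, edgeR adjusted p = 0.788). The tetracycline effects in the 2 lines differed by -0.09 (edgeR adjusted p = 0.991), so no difference between them was detectable. Of all genes, 1.02% were called in FLP_TET against FLP, 0% in RPRD1B_FL_TET against RPRD1B_FL (733 genes had an unadjusted p under 0.05) and 0% for the difference of effects (477 genes).

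Across all 12 groups the order of CBX5 means ran from FLP through FLP_TET, RPRD1A_KD, RPRD1B_FL, RPRD1A_RPRD2_KD, RPRD1A_RPRD1A_KD, RPRD1A_RPRD1B_RPRD2_KD, CTRL, RPRD1B_FL_TET, RPRD1B_KD and RPRD2_KD to RPRD1B_RPRD2_KD. The libraries of neighbours in this order overlapped between FLP_TET and RPRD1A_KD, from RPRD1A_RPRD1A_KD through RPRD1A_RPRD1B_RPRD2_KD, CTRL and RPRD1B_FL_TET to RPRD1B_KD, and between RPRD2_KD and RPRD1B_RPRD2_KD. The level of CBX5 in HEK293T cells given RPRD1A siRNA alone lay within the range of the induced parent Flp-In cells.

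Over all libraries of each cell line, RPRD1A and CBX5 levels were related in opposite directions. Pearson's r between the genes, on log2(CPM + 1), was -0.708 over the 16 HEK293T libraries and 0.892 over the 8 Flp-In libraries. In HEK293T the libraries lowest in RPRD1A are those given its siRNA. Among the HEK293T groups without it, the means of both genes fell in the same order, as in Flp-In cells. Libraries of neighbours in this order overlapped in places. For RPRD1A they overlapped from RPRD1B_KD through RPRD2_KD to RPRD1B_RPRD2_KD, and between FLP and FLP_TET. For CBX5 they overlapped between RPRD2_KD and RPRD1B_RPRD2_KD. RPRD1A and CBX5 were at 157 and 143 CPM in CTRL and at 92.0 and 134 CPM in RPRD1B_KD. They were at 84.9 and 118 CPM in RPRD2_KD and at 75.5 and 116 CPM in RPRD1B_RPRD2_KD. In Flp-In cells RPRD1A was lowest in RPRD1B_FL_TET, at 27.1 and 25.5 CPM against 58.1 and 54.4 CPM in FLP_TET, and CBX5 was lowest there too. These correlations are descriptions, since libraries of a group share their treatment and the choice of CBX5 rests on the HEK293T groups.

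**Figure D2:**
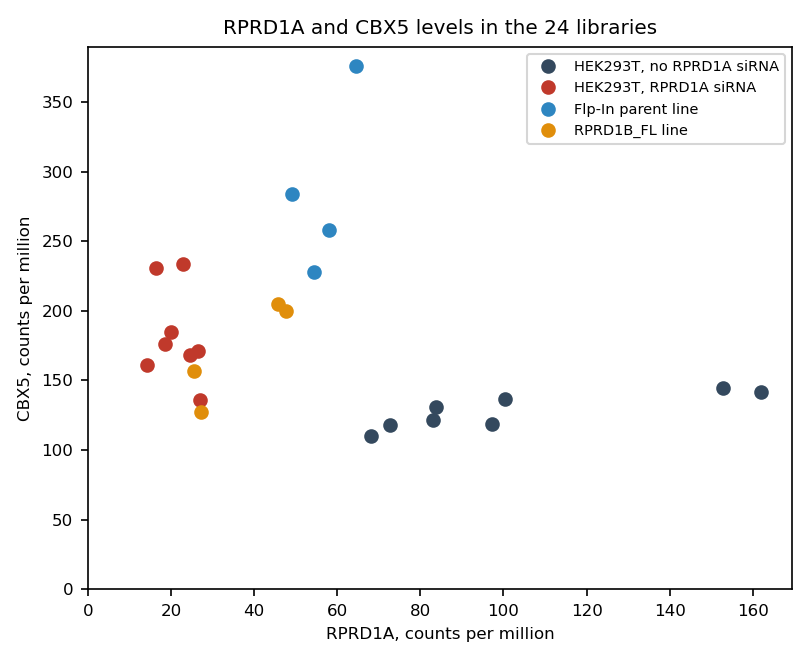
CBX5 level (vertical axis, CPM) against RPRD1A level (horizontal axis, CPM) in the 24 libraries, with points coloured by siRNA or line. The HEK293T libraries given RPRD1A siRNA sit at 14.3 to 26.8 CPM of RPRD1A and 136 to 233 CPM of CBX5, and the Flp-In libraries run from low in both genes to high in both.

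HNRNPA1, the head-to-head neighbour of CBX5, was not called in the siRNA or line comparisons. HNRNPA1 ranged from 690 to 973 CPM (median 875) with RPRD1A siRNA and from 775 to 927 CPM (median 847) in the other HEK293T libraries. These ranges overlapped almost wholly, and the log2 difference was 0.02 (SE 0.0736, 2-SE interval -0.127 to 0.167, edgeR adjusted p = 1). In Flp-In cells it was -0.11 (SE 0.134) in RPRD1B_FL against FLP and 0.05 (SE 0.134) with tetracycline. The number of CBX5 counts per 100 HNRNPA1 counts needs no library scaling. It was 24.4 and 28.9 in RPRD1A_KD and 16.1 and 17.8 in CTRL. It ranged from 15.5 to 28.9 with RPRD1A siRNA and from 11.9 to 17.8 in the other HEK293T libraries, and 6 of the 8 RPRD1A siRNA libraries lay above all others. These HEK293T ratios reuse the CBX5 counts that chose the gene, so they are a description and no separate evidence. In the parent Flp-In libraries the ratio was 16 to 23, and in the RPRD1B_FL line 8.98 to 14.7, without overlap.

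The other HP1 genes are CBX1, which encodes HP1-beta, and CBX3, which encodes HP1-gamma, an HP1 protein also found within active genes. CBX1 ranged from 147 to 243 CPM (median 224) with RPRD1A siRNA and from 167 to 235 CPM (median 221) without it. CBX3 ranged from 1219 to 1781 CPM (median 1618) with RPRD1A siRNA and from 1176 to 1779 CPM (median 1579) without it. For both genes these ranges overlap nearly completely. The log2 differences for RPRD1A siRNA were 0.01 (SE 0.0924) for CBX1 and 0.02 (SE 0.0995) for CBX3, both with an edgeR adjusted p of 1. Those of the matched RPRD2 siRNA comparison were -0.12 and 0.19, and those of the matched RPRD1B siRNA comparison 0.17 and -0.01, none called by edgeR.

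In Flp-In cells CBX1 was at 132 and 106 CPM in FLP and at 90.7 and 88.6 CPM in RPRD1B_FL, with no overlap. The log2 difference was -0.40 (SE 0.167, edgeR adjusted p = 0.29), and with tetracycline it was -0.26 (SE 0.167, edgeR adjusted p = 0.65). CBX3 was at 878 and 931 CPM in FLP and at 831 and 1127 CPM in RPRD1B_FL, on both sides of the parent (log2 difference 0.12, SE 0.155). HNRNPA2B1, its head-to-head neighbour, was at 1275 to 1558 CPM in the parent and 1204 to 1321 CPM in the RPRD1B_FL line.

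Among the Polycomb genes, CBX2 encodes a subunit able to compact chromatin, and CBX7 and CBX8 encode subunits known to hold down the CDKN2A locus. CBX2 ranged from 123 to 182 CPM (median 142) with RPRD1A siRNA and from 126 to 161 CPM (median 139) in the other HEK293T libraries. CBX6 ranged from 336 to 534 CPM (median 415) and from 361 to 541 CPM (median 380). Neither gene separated the groups. CBX7 ranged from 12.2 to 28.7 CPM (median 23.03) and from 11.6 to 21.8 CPM (median 19.3), and CBX8 from 17.96 to 56.2 CPM (median 31.8) and from 23.6 to 60.9 CPM (median 36.8). The log2 differences for RPRD1A siRNA were 0.00 for CBX2, 0.05 for CBX6, 0.23 (SE 0.151) for CBX7 and -0.19 (SE 0.183) for CBX8, with an edgeR adjusted p of 1 for each.

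CBX7 and CBX8 are the least counted of the 7 genes, with as few as 26 and 53 counts in a library. CBX7 was at 26.7 and 27.7 CPM in RPRD1A_KD and at 21.8 and 11.6 CPM in CTRL. The libraries did not overlap, and the log2 difference was 0.74 (SE 0.306, unadjusted p 0.028, edgeR adjusted p = 1). It was 1.23 without the first CTRL library and 0.32 without the second. CBX8 was at 60.9 and 31.9 CPM in RPRD2_KD and at 30.7 and 23.6 CPM in CTRL (log2 difference 0.79, SE 0.371, unadjusted p 0.0487, edgeR adjusted p = 1). It was 0.25 without the first RPRD2_KD library and 1.19 without the second. Over the 7 comparisons with CTRL, edgeR and DESeq2 each called 0 members, with CBX5 left out of the count in the groups given RPRD1A siRNA. The CBX7 and CBX8 values above were the tested ones with an unadjusted p under 0.05. The share of all genes called was 0.00845% in RPRD1A_KD and in RPRD1A_RPRD2_KD and 0.0169% in RPRD1A_RPRD1A_KD and in RPRD1A_RPRD1B_RPRD2_KD. In the matched RPRD2 siRNA comparison CBX6 differed by -0.18 (SE 0.12, edgeR adjusted p = 0.999), and by -0.24 (edgeR adjusted p = 0.0404) in a fit that blocked on replicate number and dropped the outlying RPRD1A_RPRD2_KD library.

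Several members differed between the first and second libraries of most HEK293T groups. The first library had the higher CPM in 7 of 8 groups for CBX3, CBX6 and CBX8, in 8 of 8 for HNRNPA1, and in 1 of 8 for CBX1. CBX3 was at 1596 to 1779 CPM in the first libraries and at 1176 to 1781 CPM in the second. For CBX5 the first library was higher in 3 of 8 groups.

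**Figure D3:**
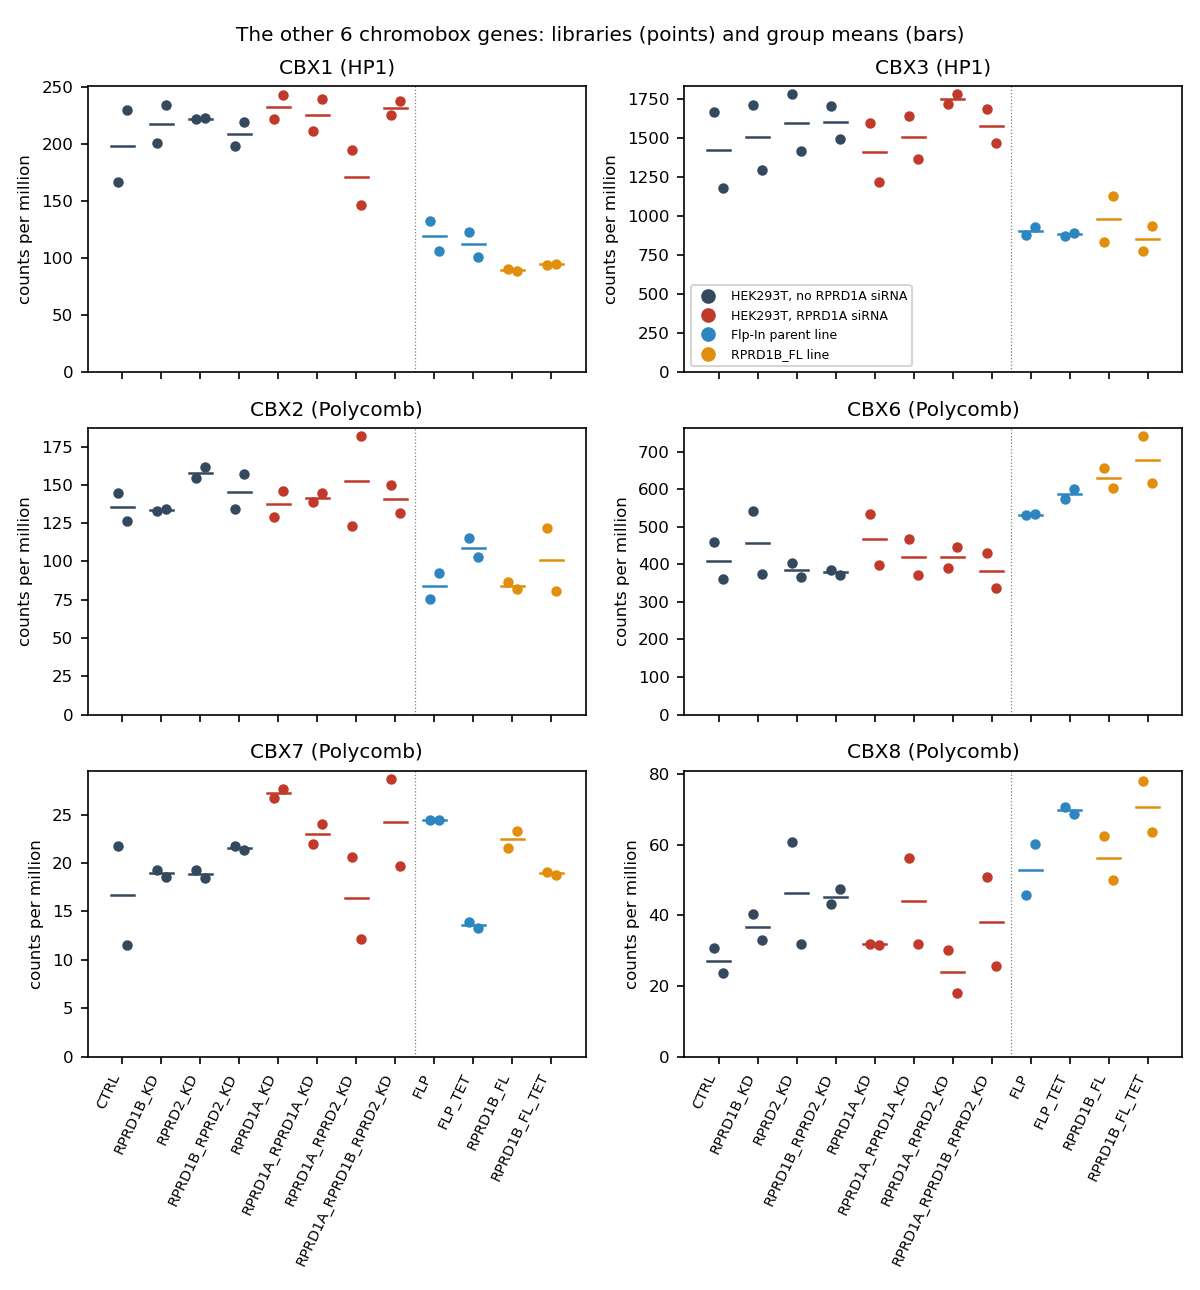
Levels in CPM (vertical axes, each from 0) of the other 6 chromobox genes in all libraries (points) with group means (bars). CBX1, CBX2 and CBX3 are higher in HEK293T than in Flp-In libraries, and in most HEK293T groups the 2 libraries of CBX3, CBX6 and CBX8 differ in the same direction.

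Tetracycline in the parent line went with lower CBX7. CBX7 was at 24.4 and 24.5 CPM in FLP and at 13.9 and 13.3 CPM in FLP_TET, from 40 to 85 counts a library. The libraries did not overlap, and the log2 difference was -0.85 (SE 0.23, edgeR adjusted p = 0.0598). Some other settings put it past the threshold: -1.11 with the GC correction (edgeR adjusted p = 0.0193), and an edgeR adjusted p of 0.0428 without the filter on low counts and 0.021 with only the compared libraries. These settings called 144 of 11948, 762 of 22723 and 1273 of 11848 genes, in that order, and the main fit 122 of 11948. Of 12 alternatives, 5 called CBX7 and 7 did not. In the RPRD1B_FL line CBX7 was at 21.6 and 23.3 CPM untreated and at 19.1 and 18.8 CPM induced (log2 difference -0.27, SE 0.233). CBX2 was at 75.6 and 92.4 CPM in FLP and at 115 and 103 CPM in FLP_TET, and CBX8 at 45.8 and 60.1 CPM and at 70.7 and 68.6 CPM. These 2 genes had log2 differences of 0.37 and 0.38 (edgeR adjusted p = 0.233 and 0.225). CBX6 was at 531 and 534 CPM in FLP and 573 and 602 CPM in FLP_TET (log2 difference 0.14, edgeR adjusted p = 0.586).

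**Figure D4:**
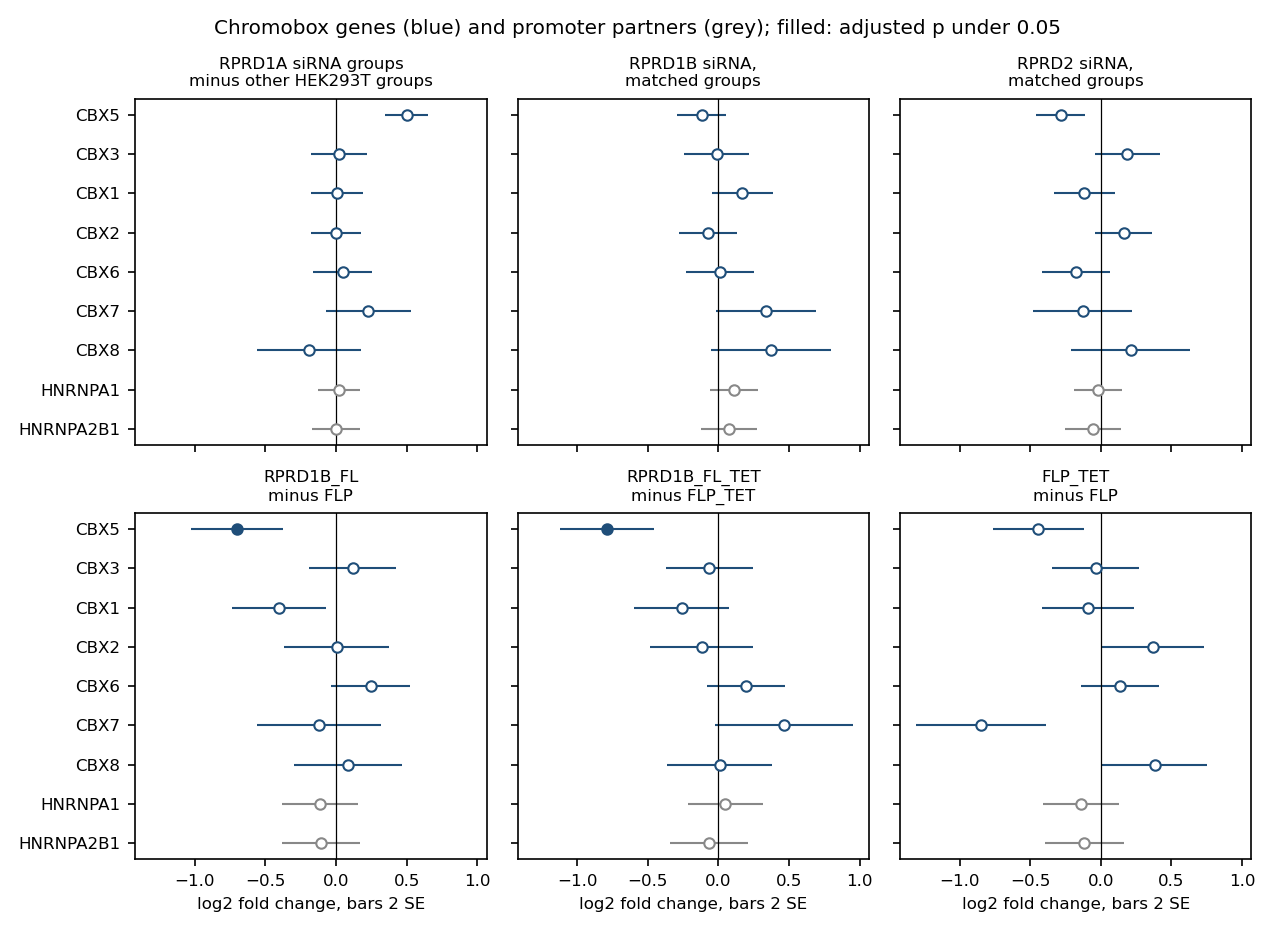
Log2 fold changes (horizontal axes; bars are 2 SE) of the 7 chromobox genes (blue) and of HNRNPA1 and HNRNPA2B1 (grey) in 6 comparisons. Filled points have an edgeR adjusted p under 0.05, here CBX5 at -0.70 and -0.79 between the lines; the CBX5 point at 0.50 for RPRD1A siRNA is a description and is drawn open.

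The largest differences among these genes were between the cell lines. HEK293T with control siRNA and untreated Flp-In cells differ in line and in transfection together, and these cannot be told apart. Reads outside genes also differed, at 27.4% to 36.7% in HEK293T and 15.3% to 19.5% in Flp-In libraries, and their part in the differences was not tested. The share of all genes called was 33.4% (17.4% lower and 16.1% higher in CTRL). Of the 7 members, 3 were higher in CTRL and 2 were lower. CBX1 was at 167 and 230.2 CPM in CTRL and at 132 and 106 CPM in FLP (log2 difference 0.74, SE 0.182, edgeR adjusted p = 0.00269). CBX2 was at 144 and 126 CPM against 75.6 and 92.4 CPM (0.68, SE 0.199, edgeR adjusted p = 0.00956). CBX3 was at 1665 and 1176 CPM against 878 and 931 CPM (0.65, SE 0.193, edgeR adjusted p = 0.0109). The CTRL and FLP libraries did not overlap for any of the 7 members, called or not. The share of all genes without overlap was not computed.

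CBX5 went the other way, at 144 and 142 CPM in CTRL against 376 and 284 CPM in FLP (log2 difference -1.21, SE 0.167, edgeR adjusted p = 4.03e-06). CBX8 was at 30.7 and 23.6 CPM against 45.8 and 60.1 CPM (-0.98, SE 0.318, edgeR adjusted p = 0.0188). CBX6, at 459 and 361 CPM against 531 and 534 CPM, and CBX7, at 21.8 and 11.6 CPM against 24.4 and 24.5 CPM, did not pass (-0.38 and -0.58, edgeR adjusted p = 0.127 and 0.103). CBX6 passed with the GC correction and replicate block together (-0.46, edgeR adjusted p = 0.0122). CBX5 was called under all 12 alternatives. CBX1, CBX2, CBX3 and CBX8 each lost the call on leaving out 1 of 2 libraries (CBX1 and CBX8 without the second CTRL or the second FLP library, CBX2 and CBX3 without the first CTRL or the first FLP library), with edgeR adjusted p from 0.0622 to 0.26. CBX7 was called without the first CTRL library (-1.10, edgeR adjusted p = 0.0169). The head-to-head neighbours had the sign of their partners here: HNRNPA1 was at 895 and 794 CPM in CTRL and 1633 and 1456 CPM in FLP (-0.87, edgeR adjusted p = 4.07e-05), and HNRNPA2B1 at 2142 and 1821 CPM against 1558 and 1275 CPM (0.48, edgeR adjusted p = 0.0224, lost with only the compared libraries at 0.0606 and without the first CTRL or second FLP library at 0.217 and 0.219).

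The genes that write, remove or bind the marks read by chromobox proteins were followed as lists. The H3K9 methylation and HP1 partner list had 28 genes (27 tested in HEK293T, 26 in Flp-In cells), PRC1 18 (18 and 16), PRC2 11, the enzymes that remove H3K27 methylation or H2A ubiquitin 5, other chromodomain genes 5, and the CDKN2A and CDKN2B locus 2. In the siRNA, line and tetracycline comparisons edgeR and DESeq2 each called 0 of these genes. For RPRD1A siRNA the median log2 difference was -0.03 for the H3K9 list, 0.02 for PRC1 and -0.01 for PRC2, beside 0.00 for all genes tested, and 0, 1 and 0 members had an unadjusted p under 0.05. For RPRD1B_FL against FLP the medians were 0.09, 0.06 and -0.15, beside 0.01 for all genes, with 2, 1 and 1 members under 0.05. The most members under 0.05 were in FLP_TET against FLP, with 6 of 26 in the H3K9 list and 4 of 16 in PRC1, in a comparison where 2711 of 11948 genes were under 0.05.

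Among the most abundant genes of the lists, some had overlapping mean ± SD ranges in the cell lines and others did not. LBR, a nuclear envelope protein that binds HP1, was at 483 ± 52.6 CPM in HEK293T (n = 16) and 509 ± 67.6 CPM in Flp-In cells (n = 8). TRIM28, the corepressor that recruits HP1 and SETDB1, was at 269 ± 54.4 and 293 ± 72.8 CPM. RBBP7, a histone-binding subunit of PRC2, was at 563 ± 91.0 and 595 ± 109 CPM, and CHD4, a chromodomain helicase, at 616 ± 52.3 and 579 ± 37.7 CPM. PCGF2, a PRC1 subunit, was at 112 ± 10.2 and 124 ± 17.8 CPM, and for these 5 genes the ranges overlapped. BCOR, of a variant PRC1, was at 146 ± 19.9 and 107 ± 6.34 CPM, and RBBP4, another histone-binding subunit, at 162 ± 18.9 and 126 ± 9.17 CPM. BAP1 was at 160.3 ± 21.5 and 104 ± 22 CPM, and DNMT1, the maintenance DNA methyltransferase, was higher in Flp-In cells, at 237 ± 40.7 against 342 ± 37 CPM. For these 4 genes the ranges did not overlap.

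Between CTRL and FLP, where 33.4% of all genes were called, 18 list genes were called by edgeR and 13 by DESeq2. Both counts include HNRNPA1 and HNRNPA2B1, which were kept as a further list of promoter neighbours. Of the 28 genes of the H3K9 list, 2 were higher and 3 lower in CTRL. Of the 18 PRC1 genes, 3 were higher and 0 lower (3 had an unadjusted p under 0.05), and these 3, RNF2, PHC2 and KDM2B, were called neither by DESeq2 nor without the filter on low counts. Of the 11 PRC2 genes, 4 were higher and 0 lower (6 had an unadjusted p under 0.05), and EZH1 among them was not called by DESeq2. RNF2, PHC2, KDM2B and EZH1 are named after their values were seen. The medians were 0.01, 0.15 and 0.10, beside 0.02 for all genes. CDYL2, a chromodomain protein gene, had 0 counts in both CTRL libraries and 27 and 46 in FLP, at least 7.82-fold higher in FLP when CTRL is set at 3 counts per library. ATF7IP, a partner of SETDB1, was at 97.6 and 59.6 CPM in CTRL and 168 and 178 CPM in FLP (log2 difference -1.15, edgeR adjusted p = 0.000997). BAP1, which removes ubiquitin from H2A, was at 167 and 134 CPM against 80.5 and 94.4 CPM (0.78, edgeR adjusted p = 0.00513). PHF19, a reader subunit of PRC2, was at 82.5 and 89.0 CPM against 55.7 and 53.8 CPM (0.65, edgeR adjusted p = 0.0079). CDKN2B, at a locus that Polycomb silences, was at 6.69 and 5.34 CPM against 20.99 and 21.9 CPM (-1.84, edgeR adjusted p = 0.000451), while its neighbour CDKN2A differed by 0.47 (edgeR adjusted p = 0.0272). CDKN2A was not called with no filter on low counts, with only the groups compared or with the GC correction. BAP1 was not called without the first CTRL or the first FLP library, nor PHF19 without the second CTRL or the second FLP library.

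The genes whose levels were most like CBX5 were sought among 8896 genes with a mean of 10 or more CPM, by Pearson's r of log2(CPM + 1) centred on each cell line, over the 24 libraries. The highest were BACE1 (0.875), which encodes beta-secretase, NUCKS1 (0.874), a chromatin protein gene, SMC1A (0.751), a cohesin subunit gene, MATR3 (0.749), which encodes the nuclear matrix protein matrin 3, and CFDP1 (0.721). The lowest were GPN1 (-0.78), a GTPase gene tied to nuclear import of RNA polymerase II, and GLA (-0.77), which encodes the lysosomal alpha-galactosidase. These are descriptions over libraries that share groups and depth. For SMC1A, MATR3 and CFDP1, r in HEK293T libraries alone was 0.594, 0.588 and 0.504 (ranks 75, 84 and 193). In Flp-In libraries alone it was 0.876, 0.893 and 0.907 (ranks 166, 118 and 80). For the other 6 chromobox genes r over the 24 libraries lay between -0.36 for CBX8 and 0.31 for CBX1, and it differed by cell line. In Flp-In libraries it was -0.905 for CBX6 and 0.777 for CBX1, and in HEK293T libraries 0.402 and -0.0277.

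BACE1 kept its place in HEK293T libraries alone (r = 0.863, rank 1) and ranked 116 in Flp-In libraries alone (r = 0.893). It was at 39.8 and 29.7 CPM in RPRD1A_KD and at 22.9 and 19.6 CPM in CTRL. In RPRD1B_FL_TET it was at 10.7 and 15.2 CPM and in FLP_TET at 22.6 and 25.5 CPM. In both settings the groups did not overlap. BACE1 was picked for its likeness to CBX5 over these libraries, so its matching levels follow from that choice. NUCKS1 was at 2171 and 2023 CPM in RPRD1A_KD and 2046 and 1777 CPM in CTRL, an overlap, and at 1411 and 1632 CPM in RPRD1B_FL_TET against 2066 and 1751 CPM in FLP_TET. GPN1 ran opposite, at 48.2 and 38.5 CPM in RPRD1A_KD against 59.7 and 72.6 CPM in CTRL.

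**Figure D5:**
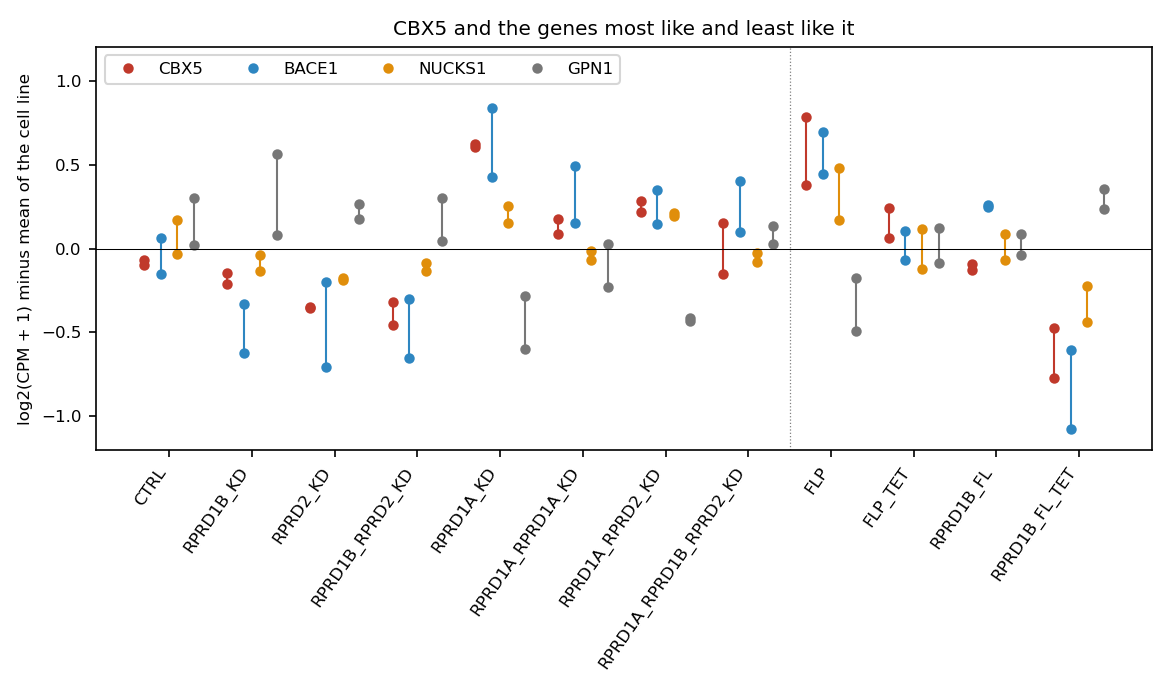
Log2(CPM + 1) minus the mean of the cell line (vertical axis) for CBX5, for BACE1 and NUCKS1, the 2 genes most like it, and for GPN1, the gene least like it, in each group; points are libraries and a line joins the 2 libraries of a group. CBX5 and BACE1 are above their means in RPRD1A_KD and FLP and below them in RPRD1B_FL_TET, where GPN1 is above its mean.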

How the data were processed

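Libraries were made with the QuantSeq 3′ REV kit, which reads polyadenylated RNA from its 3′ end, per the labels. The deposited values are whole-number counts per gene name, 1 table per sample. Per the submitters' processing notes, FastQC, STAR, HTSeq, DESeq2 and GRCh38 were used, with no version or order. The annotation, strand setting and filters are not given in the sources used here. The 5 closing rows of each table name no gene and were left out of library sizes and tests: reads outside genes were 27.4% to 36.7% in HEK293T and 15.3% to 19.5% in Flp-In libraries, reads without a unique position 9.56% to 14.6% and ambiguous reads 1.3% to 1.83%. 2 libraries of a group never agreed within sampling noise (chi-square per degree of freedom 2.11 to 11.8).

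Counts were tested in R 4.3.3 with edgeR 4.0.16 (TMM, filterByExpr with minimum count 10 and minimum total 15, glmQLFit, glmQLFTest). All 16 HEK293T libraries entered 1 fit, all 8 Flp-In libraries another, and all 24 together the fit for CTRL against FLP. P-values were adjusted by Benjamini-Hochberg over all genes tested (11834, 11948 and 12803), and a gene was called under 0.05. The SE was taken as the size of the log2 fold change divided by the root of F, and intervals are 2 SE. The matched siRNA comparisons average differences between groups that differ in that siRNA alone, leaving out RPRD1A_RPRD1A_KD. SD is over libraries. Counting floors (3 counts) cover counting error only, as the tables hold no molecular identifiers.

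The members, lists and tests were chosen with earlier results of these data known. Named genes are the 7 members, the targeted genes, HNRNPA1, HNRNPA2B1, the neighbours of CBX5, list genes called (the 6 with the smallest adjusted p where there were more) and the 3 most abundant of each list, of which the text gives a selection, and the 5 genes most and 2 least like CBX5. GENCODE release 29 gave positions and transcript GC content (54814 of 58138 names matched 1 gene), and RefSeq the promoter windows. Alternatives were DESeq2 1.42.0, RLE scaling, a mean count of 50 or more, no filter, only the groups compared, the replicate number as a block, omission of the second RPRD1A_RPRD2_KD library, and leaving out each library; a GC correction (lowess, span 0.3) and a crossed block were added after seeing the data. The code was tested on simulated counts. The blood marker list is not reported here.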

Additional observations from a re-analysis of the deposited data

How the results depend on the processing

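The CBX5 difference over RPRD1A siRNA groups ranged from 0.46 to 0.53 over 25 alternatives. CBX5 was left out of the counts of members called in that contrast and where a group given RPRD1A siRNA was compared with CTRL. The count of members called stayed 0 in the comparisons with CTRL under all 26 alternatives run. In the pooled siRNA contrasts it went from 0 to 2 (for RPRD2 siRNA, CBX6, and CBX5, whose value draws on the libraries that chose it and counts as no test) in a fit that dropped the outlying RPRD1A_RPRD2_KD library and used the replicate block. In the line and tetracycline comparisons it went from 2 to 4 (CBX5 in 3 of them, CBX7 in 1) with only the groups compared and with the crossed replicate block, and it ranged from 1 to 3 as each library was left out. For CTRL against FLP it was 5, 6 with the GC correction and replicate block, and 3 to 4 with a library left out. The list genes called outside CTRL against FLP, 0 as reported, were 2 with no filter (ATRX and TRIM28, FLP_TET against FLP), 5 with only the groups compared (ATRX, CHD1, CHD3, KMT5C and TRIM28, same comparison), 5 calls with the library omitted and the block (HNRNPA2B1, PHF19, BCOR, and TRIM28 in 2 comparisons), 1 with the GC correction (NIPBL), 2 with the GC correction and replicate block (NIPBL and RBBP7), 11 with the crossed block, and 0 to 7 calls with a library left out, the 7 (of 5 genes: LBR, PHC3, BCOR, TRIM28, and RBBP7 in 3 comparisons) without the first RPRD1A_RPRD2_KD library. These genes were named after their values were seen. In the comparisons holding these calls, more of all genes were called too. In FLP_TET against FLP the main fit called 122 of 11948 genes. There, 762 of 22723 were called with no filter, 1273 of 11848 with only the groups compared and 1623 of 11948 with the crossed block. The fit without the first RPRD1A_RPRD2_KD library left the outlying library alone in its group. For CTRL against FLP, 18 list genes became 11 with no filter, 23 with the replicate block, 22 with the GC correction and block, and 8 to 12 with a library left out. The lists behind these counts include HNRNPA1 and HNRNPA2B1. The cause was not tested. Single-gene values were tallied only for members, HNRNPA1 and HNRNPA2B1 with an unadjusted edgeR p under 0.05 in the main fit. The CBX5 descriptions against CTRL were added. The tally thus starts from the stronger values and leaves out the new CBX6 calls given above. Of these values under alternatives, 249 kept their direction and their side of any threshold. A further 10 newly passed it, 17 no longer passed it, and no tested value in the tally changed direction. The 2 others are the CBX5 difference of the triple group from CTRL without each of its libraries.

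The replicate numbers were not taken to pair the libraries: deviations of same-numbered libraries correlated at -0.0125 to 0.513 over the 28 pairs of HEK293T groups and -0.344 to 0.452 in Flp-In cells. Without RPRD1A_RPRD2_KD, all 21 pairs of HEK293T groups correlated at 0.28 to 0.513, a hint of pairing from the data, and reads outside genes were 34.3% to 36.7% in the first and 27.4% to 29.8% in the second HEK293T libraries. With the block and the outlying library dropped, 25 to 167 genes were called against CTRL, in place of 1 or 2, and 95 for RPRD1A siRNA. With the replicate block alone, CBX5 kept its calls between the lines (edgeR adjusted p = 0.0446 and 0.0244). For siRNA 0 members were called, with CBX5 left out of the count where RPRD1A siRNA groups were contrasted. Among all genes, those called went from 8 to 26 for RPRD1A siRNA, from 3 to 11 for RPRD1B siRNA and from 122 to 1 in FLP_TET against FLP. The latter was 1273 with only the groups compared and 1623 with the crossed block. At 26 to 85 counts a library, CBX7 is the member least resolved at this depth.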
